A study of Homo sapiens with 16 samples.

Results

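The data compared here are 4 of the 16 RNA sequencing libraries of a study of 2-deoxyglucose (2DG) in H1 cells, a wild-type human embryonic stem cell line. The comparison sets 2 libraries from cells kept for 24 h in E7 medium with NODAL at 100 ng/mL and 2DG at 3 mM against 2 libraries from cells kept for 24 h in the same medium with NODAL at 100 ng/mL and no 2DG, over all 17738 genes of the deposited table. E7 is E8 medium from which TGFb has been left out, so the added NODAL replaced the usual TGFb in both groups. The other 12 libraries repeat the pair with and without 2DG in plain E7, in E7 with TGFb at 1.74 ng/mL and in E7 with Activin A at 100 ng/mL, with 2 libraries a group. The labels do not say that the replicates were separate cultures, so the p-values measure only the spread between these libraries, which may be technical.

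2DG is a glucose analogue that hexokinase phosphorylates inside the cell and that glycolysis cannot use further. It also competes with mannose when sugar chains are built for glycoproteins in the endoplasmic reticulum (ER). Phosphorylated sugar is sensed by MondoA, a transcription factor that drives TXNIP and ARRDC4. Unfolded ER protein is sensed by the unfolded protein response, which includes the kinase PERK, the factor ATF4 and the chaperone genes. NODAL is a TGFb family ligand that acts through activin receptors and SMAD2 and SMAD3. In human embryonic stem cells this signal helps to hold NANOG and the pluripotent state, and it drives its own feedback inhibitors LEFTY1 and LEFTY2.

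The 4 libraries held between 14600479 and 17289014 recovered reads. Every value is a normalised read count, which is reads divided by the library's size factor. The stem cell markers POU5F1, SOX2, NANOG, LIN28A, DPPA4 and L1TD1 were high in all 4 libraries, with SOX2 the lowest of them between 4142 and 4550 and POU5F1 between 35023 and 42991. Among markers of other cell types, those of endoderm and blood were low or absent from the table. The table held 5 of 12 endoderm markers, whose summed level was 87.7 and 89.5 without 2DG and 77.2 and 73.3 with it, and 1 of 10 blood markers at 22.2 and 46.2 without and 40.9 and 19.9 with 2DG. Of the 12 fibroblast and stromal markers 7 were in the table, and their sum was 5734 and 5548 without 2DG and 4744 and 4617 with it, with COL1A2 the only member that changed. The 6 endothelial markers in the table summed to 1928 and 2039 without 2DG and 2562 and 2395 with it. KDR carried most of that sum at 1759 and 1893 without and 2479.8 and 2322 with 2DG, the other 5 members had negative signs, and the median of the 6 was -0.92. The 5 trophoblast markers, keratins included, summed to 13217 and 12317 without and 11303 and 10834 with it, and the 4 neural crest markers to 2561 and 2822 without and 2064 and 1949 with it. Mitochondrial genes took 6.62 and 6.69% of reads without 2DG and 6.49 and 6.12% with it. In these bulk libraries, fewer cells of a type and less RNA per cell cannot be told apart.

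2DG raised 520 genes and lowered 462 in NODAL medium (limma across all 16 libraries, adjusted p under 0.05 over 16714 genes tested). These 982 genes are 5.88% of the genes tested, 3.11% higher and 2.76% lower, and the median log2 fold change of all genes was -0.005. At a log2 fold change of at least 1 in size, 169 genes were higher and 146 lower. In all 982 genes the 2 libraries with 2DG lay on one side of the 2 without it, which also held for 10483 of the 16714 tested. The Activin A libraries enter the fit through its shared estimate of spread, and replicates there differed most, by 53.8 times the counting variance in Activin A medium without 2DG against 3.43 times in NODAL medium without 2DG and 1.99 times with it. Without the 4 Activin A libraries, 1712 genes rose and 1676 fell, 20.3% of the genes tested, and all 982 genes were among them. The count was 2458 or 2467 without replicate 1 or 2 of the Activin A group, 256 or 190 without replicate 1 or 2 of the NODAL group, and 164 or 223 without replicate 1 or 2 of the NODAL plus 2DG group. Of the 169 named genes that passed, 57 also passed without every single library, among them TXNIP, ARRDC4, ATF5, INHBE, ASNS, SLC7A11, HSPA5, LEFTY1, LEFTY2, MIXL1 and OTX2, and 112 lost their call without at least 1 library.

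**Figure D1:**
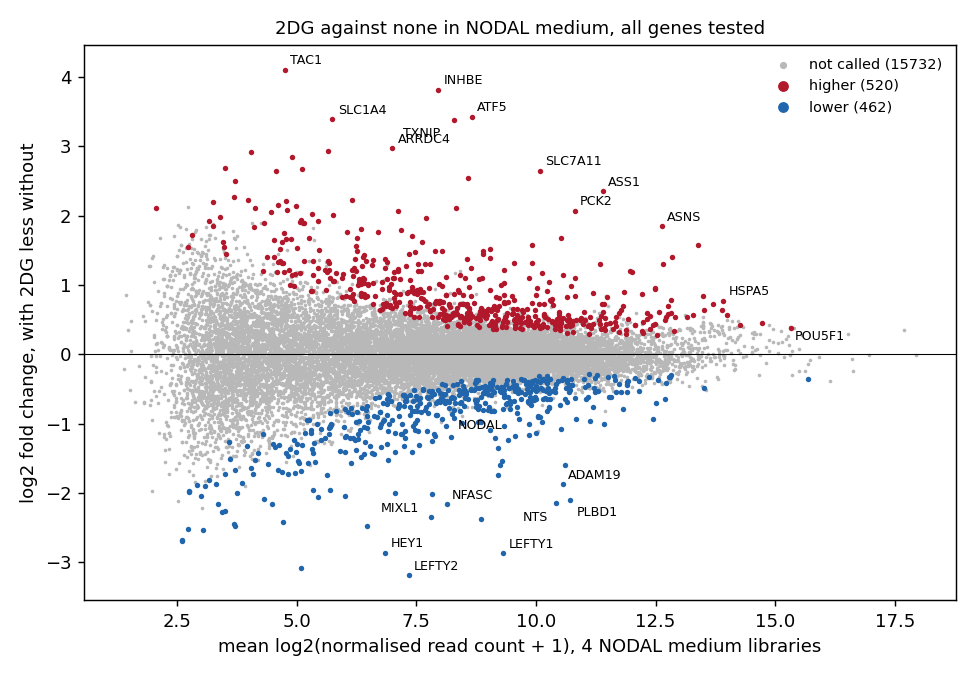
Each point is a gene tested, with its mean log2(normalised count + 1) over the 4 NODAL medium libraries on the x axis and its log2 fold change, with 2DG less without, on the y axis. Coloured points passed an adjusted p under 0.05 (520 higher, 462 lower), and the named genes reach from 4.10 for TAC1 to -3.18 for LEFTY2.

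Of 14 genes around the glucose sensor MondoA 2 rose steeply and 1 fell. TXNIP, an arrestin family protein that limits glucose uptake, read 97.2 and 94.2 without 2DG and 992 and 1012 with it. That is a log2 fold change of 3.37 ± 0.25 (limma adjusted p = 1.77e-05), about 10.5-fold, with no overlap between groups, as in every called gene. ARRDC4, its closest relative, read 42.3 and 47.1 without and 342 and 375 with 2DG, a log2 fold change of 2.98 ± 0.31 (adjusted p = 2.24e-04). MLXIP, which encodes MondoA itself, fell from 1496 and 1651 to 991 and 1028 (log2 -0.64, adjusted p = 0.0389), a call lost with any 1 NODAL medium library left out. The other 11 did not pass, among them the glucose transporter SLC2A1 at 0.43 (adjusted p = 0.145) and MLX, the partner of MondoA, at 0.22. The list median was 0.15. The promoter of TXNIP (RefSeq, GRCh38.p14, chr1:145996621-145996697, minus strand, ending before the start site) is shown because it holds the letters of the carbohydrate response element, a motif that MondoA is known to bind, here searched on both strands as CACGNGNNNNNCNCGNG and set in capitals.
TXNIP: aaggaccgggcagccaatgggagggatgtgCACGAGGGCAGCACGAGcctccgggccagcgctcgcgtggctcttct
These letters occurred in 0.501% of the 35116 RefSeq promoter windows, which run from 250 bases before to 50 after a start. Of tested genes with a window 1.01% held them, of genes called higher 1.92% and of genes called lower 0.297%. Other genes with the letters included JDP2, SLC1A5 and SQSTM1, which rose, HES1, which fell, and SIL1 and GFPT1, which did not pass. The ARRDC4 window held no match, which says only that these letters are not in that window.

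The ATF4 branch of the integrated stress response is the arm in which phosphorylated eIF2 alpha favours translation of ATF4, and ATF4 then drives genes for amino acid supply. Of 20 regulators and immediate targets measured, 14 rose and 0 fell, with a median log2 fold change of 1.21 (16 rose and 1 fell without the Activin A libraries). With any 1 of the 4 NODAL medium libraries left out 4 to 6 of them rose. ATF4 itself read 6712 and 6085 without 2DG and 9365 and 9265 with it, log2 0.54 ± 0.12 (adjusted p = 0.0196), a call lost with any 1 NODAL medium library left out. ATF4 is controlled mainly at translation. Larger folds were seen among the factors listed downstream of it. ATF5 read 131 and 114 without and 1377 and 1276 with 2DG (log2 3.43 ± 0.33, adjusted p = 1.10e-04). DDIT3, the CHOP factor linked to ER stress death, read 13.7 and 21.7 without and 145 and 132 with 2DG (log2 2.93 ± 0.43, adjusted p = 0.00174). For both genes each library with 2DG stood far above each library without it. CHAC1, an enzyme that degrades glutathione, rose from 169 and 148 to 997 and 863, and TRIB3, a pseudokinase that feeds back on ATF4, rose from 161 and 149 to 448 and 425. The bZIP partners CEBPB and CEBPG rose by 1.15 and 0.57 on the log2 scale, and JDP2 by 1.10.

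Several of the raised genes of this list encode secreted proteins or growth brakes. INHBE, the beta E subunit of activin, read 62.3 and 67.9 without 2DG and 969 and 892 with it (log2 3.82 ± 0.32, adjusted p = 3.88e-05). The stress hormones GDF15, STC2 and ADM2 rose by 2.09, 1.68 and 1.5 on the log2 scale, GDF15 from low levels of 13.7 and 11.3 to 58.1 and 54.4. SESN2, which holds back mTORC1 when leucine is short, rose by 1.21, and VLDLR by 1.40. The 6 members that did not pass were DDIT4 at 1.20 (adjusted p = 0.0731), ATF3 at 0.73 (0.142), PPP1R15A at 0.19 (0.621), CREBRF at -0.84 (0.0808), KLHL24 at -0.18 (0.502) and SIDT2 at -0.11 (0.800). Among 12 eIF2 alpha kinases, phosphatases and exchange factor subunits 0 rose and 1 fell: EIF2AK4, the amino acid sensor GCN2, from 3697 and 3795 to 2455 and 2442 (adjusted p = 0.0178). That call was lost with any 1 NODAL medium library left out. The 4 NODAL medium libraries alone gave 2 higher and 2 lower of the 12, in a fit that called 4865 of all 16714 genes tested. PERK, encoded by EIF2AK3, stood at 0.26 (adjusted p = 0.248).

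**Figure D2:**
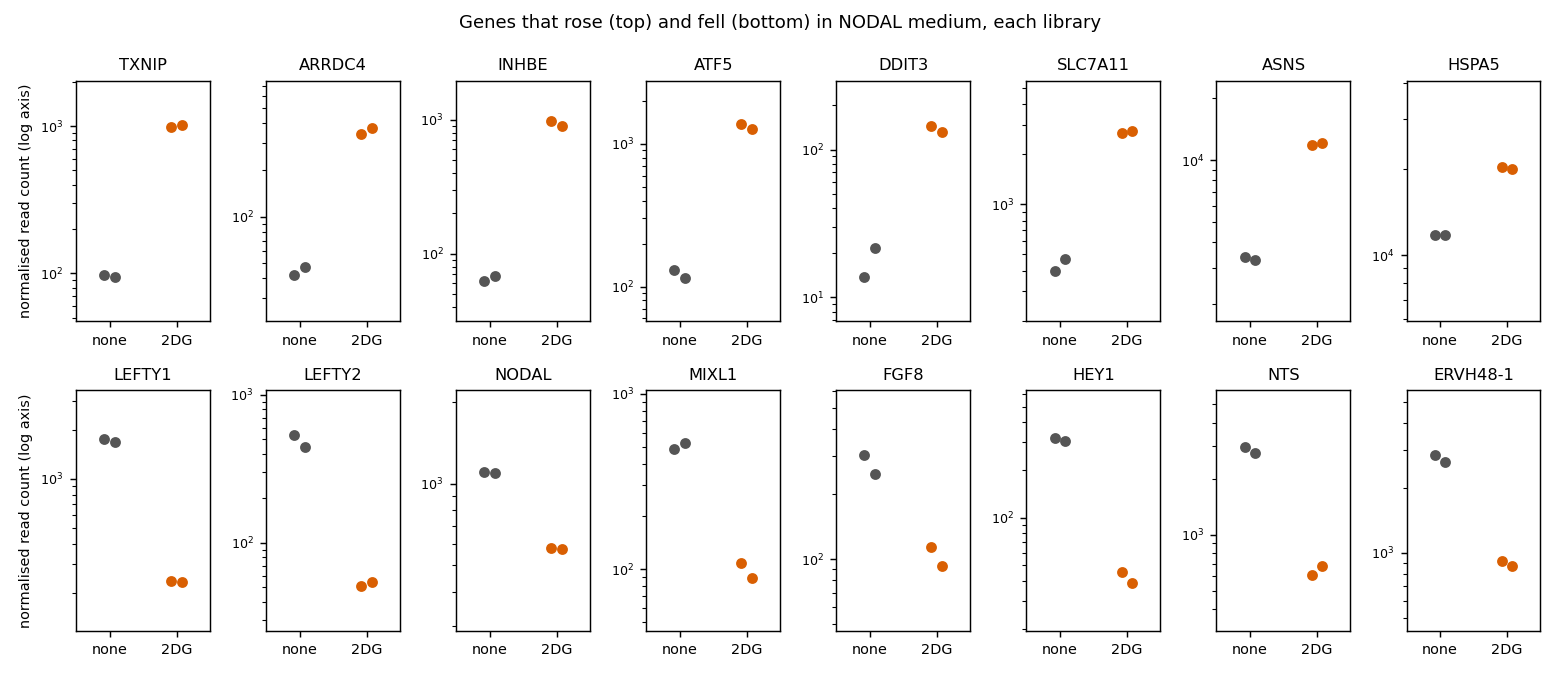
Normalised read counts, on a log axis, of 16 genes in the 2 libraries without 2DG and the 2 with 2DG in NODAL medium; each point is a library. In every gene shown the pairs do not overlap, as in all 982 called genes and in 10483 of the 16714 genes tested. The upper row holds genes that rose and the lower row genes that fell.

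Of 21 amino acid transporters 10 rose and 2 fell, with a median log2 fold change of 0.65 (13 and 4 without the Activin A libraries, and 6 or 7 higher with 1 NODAL medium library left out). SLC7A11, the cystine importer, read 396 and 470.2 without 2DG and 2684 and 2752 with it (log2 2.65 ± 0.38, adjusted p = 0.00163). SLC1A4, which carries alanine, serine and cysteine, was near the floor without 2DG at 11.6 and 20.7 and read 188 and 158 with it (log2 3.39 ± 0.37). The leucine transporter pair SLC7A5 and SLC3A2 rose by 1.41 and 0.95, and the glutamine carrier SLC1A5 from 2701 and 2753 to 6402 and 5980.0. SLC6A9, SLC43A1, SLC7A3, SLC38A5 and SLC38A9 rose by 1.44, 1.37, 0.91, 0.74 and 0.65. SLC1A1 and SLC43A2 fell, by 0.64 and 0.52.

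Synthesis of serine, one-carbon units and asparagine showed the same direction in 11 of 18 genes, with 1 gene lower and a median of 0.82 (11 and 2 without the Activin A libraries, and 3 to 5 higher with 1 NODAL medium library left out). The serine enzymes PHGDH, PSAT1 and PSPH rose by 0.85, 1.57 and 0.80 on the log2 scale. PSAT1 read 6146 and 6225 without and 18608 and 18254 with 2DG (adjusted p = 8.24e-04). The mitochondrial folate enzymes SHMT2, MTHFD2, MTHFD1L and ALDH1L2 rose by 1.30, 0.87, 0.43 and 1.51, whereas their cytosolic counterparts SHMT1 at -0.02 and MTHFD1 at -0.32 did not pass (adjusted p = 0.922 and 0.0624). Asparagine synthetase, ASNS, read 3372 and 3284 without and 11832 and 12157 with 2DG (log2 1.85 ± 0.21, adjusted p = 3.43e-04). GPT2, CTH and PYCR1 rose by 0.89, 1.08 and 0.84. Outside the list, among the genes of largest change, ASS1, which makes argininosuccinate for arginine synthesis, rose from 1257 and 1137 to 6349.8 and 5891 (adjusted p = 2.20e-05) and PCK2, mitochondrial phosphoenolpyruvate carboxykinase, from 859 and 888 to 3759 and 3587.

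Of 20 cytosolic aminoacyl-tRNA synthetases, which charge tRNAs with amino acids, 10 rose and 0 fell, with a median of 0.38 (15 and 1 without the Activin A libraries, and 3 to 6 higher with 1 NODAL medium library left out). The largest steps were in WARS at 1.30, SARS at 1.20, CARS at 0.99 and GARS at 0.94. AARS, IARS, MARS, NARS, TARS and YARS rose by 0.42 to 0.69. The other members spanned -0.22 for VARS to 0.34 for HARS without passing. The ATF4 and C/EBP composite element, searched as TGATGNAA on both strands, was present in the promoter windows of 4 of the 19 regulators with a window (21.1%) and 6 of 18 transporters (33.3%), against 4.46% of the 27305 genes with a window and 3.62% of all windows. Of tested genes with a window 2.75% held it, of genes called higher 7.14% and of genes called lower 2.37%. The lists were chosen with earlier results of these data known, so their shares are a description and not a test. Among the regulators and transporters with the element CHAC1, CEBPG, JDP2, SLC1A4, SLC1A5 and SLC3A2 rose, while ATF3, SLC1A3, SLC7A1 and SLC38A1 did not pass. The stretches of 3 raised genes are shown because each holds the element upstream of the start, in capitals, from GRCh38.p14: ASNS at chr7:97872439-97872506 (minus strand), CHAC1 at chr15:40953232-40953299 (plus) and CEBPG at chr19:33374041-33374108 (plus).
ASNS: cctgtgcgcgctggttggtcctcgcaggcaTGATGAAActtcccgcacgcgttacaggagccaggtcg
CHAC1: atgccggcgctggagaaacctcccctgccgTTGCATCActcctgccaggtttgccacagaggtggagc
CEBPG: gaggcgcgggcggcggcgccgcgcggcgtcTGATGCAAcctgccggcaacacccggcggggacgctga
The CHAC1 match is on the reverse strand. A match describes the letters and no binding was measured.

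Of 20 ER chaperones and folding enzymes 15 rose and 1 fell, with a median log2 fold change of 0.56 (18 and 1 without the Activin A libraries, and 5 to 7 higher with 1 NODAL medium library left out). HSPA5, the lumenal HSP70 BiP, read 11765 and 11802 without 2DG and 20272 and 19992 with it, a log2 fold change of 0.77 ± 0.09 (adjusted p = 4.98e-04). DNAJB11, a BiP co-chaperone, read 779.6 and 734 without and 1434 and 1318 with 2DG (log2 0.86 ± 0.10, adjusted p = 3.40e-04). In both genes the replicates of a group lay close together and far from the other group. The lectin chaperones CALR and CANX, which hold glycoproteins that carry a glucose, rose by 0.56 and 0.64. The HSP90 paralogue HSP90B1 rose by 0.45, the disulfide isomerases PDIA4, PDIA6 and P4HB by 0.57, 0.29 and 0.42, and the secreted stress proteins MANF and CRELD2 by 0.83 and 0.63. DNAJB9, DNAJC3, HYOU1, SDF2L1 and PPIB rose by 0.52 to 0.75. ERO1A, an oxidase that is also a hypoxia target, fell by 0.46 (adjusted p = 0.0231), and PDIA3, DNAJC10, ERO1B and SIL1 did not pass at -0.13 to 0.52.

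The ER stress response element, searched as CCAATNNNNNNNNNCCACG on both strands, was present in the promoter windows of 7 of the 19 chaperone genes with a window (36.8%) and in 25 of all 27305 genes with one (0.0916%). The 7 were HSPA5, HSP90B1, CALR, CANX, PDIA6, CRELD2 and ERO1B, of which the first 6 rose. Of tested genes with a window 16 of 11105 held the element (0.144%), and of genes called higher 8 of 364 (2.2%). The list was chosen with earlier results of these data known, so its share is a description and not a test. Stretches upstream of 5 of them follow, from GRCh38.p14, with the element in capitals: HSPA5 at chr9:125241361-125241439 (minus strand), HSP90B1 at chr12:103930186-103930369 (plus), CALR at chr19:12938359-12938432 (plus), CRELD2 at chr22:49918524-49918602 (plus) and PDIA6 at chr2:10812823-10812901 (minus).
HSPA5: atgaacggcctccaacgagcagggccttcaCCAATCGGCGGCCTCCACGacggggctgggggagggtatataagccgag
HSP90B1: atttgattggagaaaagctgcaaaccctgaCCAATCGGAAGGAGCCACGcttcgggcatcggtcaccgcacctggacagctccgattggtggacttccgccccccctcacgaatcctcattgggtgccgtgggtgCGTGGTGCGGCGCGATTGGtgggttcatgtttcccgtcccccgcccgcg
CALR: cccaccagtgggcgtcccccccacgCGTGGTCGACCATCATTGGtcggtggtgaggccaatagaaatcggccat
CRELD2: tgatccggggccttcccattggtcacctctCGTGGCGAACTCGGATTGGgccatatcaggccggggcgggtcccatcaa
PDIA6: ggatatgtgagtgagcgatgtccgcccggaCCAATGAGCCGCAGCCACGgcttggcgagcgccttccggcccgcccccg
HSP90B1 held 2 copies in opposite orientation, and in CALR and CRELD2 the copy reads on the reverse strand.

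Of 10 ER stress sensors 1 rose: XBP1, the factor activated by IRE1 splicing, from 2088 and 2066 to 3312 and 3542 (log2 0.72 ± 0.12, adjusted p = 0.00406), a call lost without replicate 2 of NODAL or of NODAL plus 2DG. The table gives XBP1 per gene, so its spliced form was not measured. IRE1, encoded by ERN1, stood at 0.15 and ATF6 at -0.17 without passing. In ER-associated degradation, which sends misfolded proteins to the proteasome, 7 of 21 genes rose and 1 fell (1 or 2 higher with 1 NODAL medium library left out). HERPUD1 read 275 and 287 without and 816 and 768 with 2DG (log2 1.49 ± 0.18, adjusted p = 4.98e-04), and FAM129A, counted in this list, rose from 147 and 161 to 682 and 654. SYVN1, DERL2, UBE2J1, AUP1 and OS9 rose by 0.31 to 0.56, and HERPUD2 fell by 0.39. Of 39 genes for hexosamine and N-glycan synthesis 4 rose and 0 fell, with a median of 0.22 (13 and 2 without the Activin A libraries, and 0 or 1 higher with 1 NODAL medium library left out). They were STT3A and RPN1 of the oligosaccharyltransferase at 0.54 and 0.34, PMM2, the phosphomannomutase, at 0.44, and the glucosyltransferase ALG8 at 0.43.

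**Figure D3:**
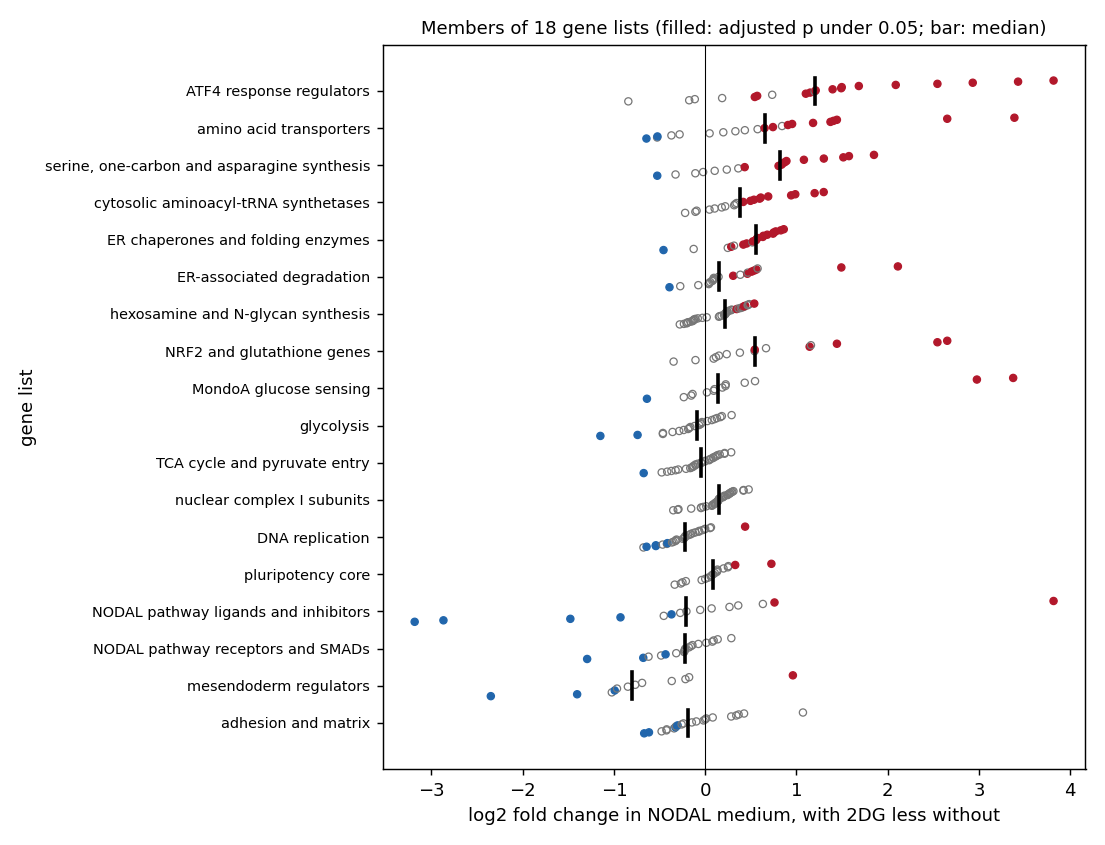
Log2 fold changes, with 2DG less without in NODAL medium, of the members of 18 gene lists; filled points passed an adjusted p under 0.05 (red higher, blue lower), open points did not, and bars mark list medians. Medians lie at 1.21 for the ATF4 regulators and 0.56 for the ER chaperones, and at -0.81 for the mesendoderm regulators.

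Of 22 glycolysis genes 0 rose and 2 fell, with a median log2 fold change of -0.09 (2 and 7 without the Activin A libraries). The 2 were SLC16A3, a lactate exporter, which read 249 and 188 without and 92.6 and 102 with 2DG (log2 -1.15 ± 0.25, adjusted p = 0.0185), and PFKFB4 at -0.74. HK2, a hexokinase that phosphorylates 2DG, read 2113 and 1912 without and 1743 and 1848 with 2DG and did not pass (log2 -0.16 ± 0.11, adjusted p = 0.448). Of 7 pentose phosphate genes 0 passed with limma, edgeR or DESeq2, and 2 had an unadjusted p under 0.05. Of 30 genes of the TCA cycle and pyruvate entry 1 fell, the pyruvate dehydrogenase kinase PDK3 at -0.67. Of 38 nuclear genes for complex I and 35 for complexes III to V 0 passed with limma, edgeR or DESeq2, with medians of 0.15 and 0.13, and 1 and 0 had an unadjusted p under 0.05. Without the Activin A libraries the counts were 4 higher and 1 lower, and 5 higher and 0 lower. Cholesterol synthesis had 0 of 22 past limma, edgeR or DESeq2, with 3 at an unadjusted p under 0.05, and fatty acid synthesis had 1 of 10, the acetate-activating ACSS2 at -0.56. Among 21 cytosolic and mitochondrial chaperones 3 rose: the mitochondrial HSPA9 at 0.65, the protease LONP1 at 0.43 and the constitutive HSPA8 at 0.39, while the heat-shock gene HSPA1A stood at -0.17 (adjusted p = 0.635). With any 1 NODAL medium library left out the calls in glycolysis, the TCA cycle and fatty acid synthesis were lost, and 0 or 1 of these chaperones rose.

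The feedback inhibitors of NODAL signalling were among the genes of largest fall, with NODAL present in both groups. LEFTY1, a secreted NODAL inhibitor (GENCODE 29, chr1:225886282-225911382, minus strand), read 1749 and 1691 without 2DG and 237 and 232 with it. The log2 fold change was -2.87 ± 0.26 (adjusted p = 8.89e-05), about 7.33-fold lower. LEFTY2 read 535 and 442 without and 50.8 and 54.4 with 2DG (log2 -3.18 ± 0.35, adjusted p = 2.84e-04). In both genes each treated library lay far below each untreated one, and because their coding sequences are nearly identical the split of reads between them is uncertain. The cells' own NODAL transcript read 1106 and 1093 without and 581 and 574 with 2DG (log2 -0.93 ± 0.18, adjusted p = 0.00997), a call lost with any 1 NODAL medium library left out. Of the 15 ligands and inhibitors measured 5 fell and 2 rose, with a median of -0.21 (2 or 3 lower with 1 NODAL medium library left out). TGFB2 fell by 1.48 and the processing protease FURIN by 0.37, while INHBE and the activin inhibitor FST rose, the latter from 111 and 103 to 192 and 172. The NODAL coreceptor TDGF1 stood at 0.07 and GDF3 at -0.45 without passing (adjusted p = 0.763 and 0.206).

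Of 19 receptors, SMADs and SMAD-induced inhibitors 3 fell and 0 rose. The 3 are feedback inhibitors that the pathway induces, but the other inhibitors of the list, SKI, SKIL, SMURF1, SMURF2 and BAMBI, did not pass at -0.07, 0.09, -0.32, -0.16 and -0.14. LDLRAD4 read 185 and 186 without and 66.3 and 84.8 with 2DG (log2 -1.29 ± 0.22, adjusted p = 0.00475). PMEPA1 fell by 0.68 (adjusted p = 0.00230) and SMAD7 by 0.43 (adjusted p = 0.0344). The receptors ACVR1B at 0.08 and ACVR2B at -0.22, the mediators SMAD2 at 0.01, SMAD3 at -0.48 and SMAD4 at -0.18, and the partner factor FOXH1 at 0.14 did not pass. Without the Activin A libraries 6 of the 19 fell and 0 rose, and 1 or 2 fell with 1 NODAL medium library left out. Of 15 genes of the BMP pathway 1 fell, GATA2 at -0.76, a call kept only without replicate 2 of NODAL plus 2DG among the 4 NODAL medium libraries left out in turn.

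Mesendoderm regulators, which respond to NODAL dose, had 3 of 12 lower and 1 higher, also 3 lower with any 1 NODAL medium library left out, with a median log2 fold change of -0.81, and 1 of the 12 had a positive sign. MIXL1, an early primitive streak homeobox gene, read 486 and 522 without 2DG and 108 and 89.0 with it (log2 -2.35 ± 0.21, adjusted p = 6.22e-05). FGF8 read 302 and 248 without and 114 and 93.2 with 2DG, and WNT3 248 and 249 without and 124 and 125 with it. OTX2, a homeobox gene of epiblast and anterior fates, went the other way, from 152 and 157 to 291 and 314 (log2 0.96 ± 0.13, adjusted p = 8.84e-04). EOMES at -0.85, GSC at -0.77 and FOXA2 at -0.69 had negative signs and did not pass (adjusted p = 0.238, 0.243 and 0.589). The summed level of the 12 was 1420 and 1403 without 2DG and 789 and 788 with it.

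The central genes of the pluripotency network did not pass the test. POU5F1 read 41802 and 35023 without 2DG and 42990.5 and 40972 with it (log2 0.13 ± 0.15, adjusted p = 0.684). SOX2 read 4549.8 and 4142 without and 4496 and 4378 with it (log2 0.03 ± 0.08), and NANOG 4919.5 and 4748 without and 4681 and 4727 with it (log2 -0.04 ± 0.11). For these 3 genes the groups differed by less than the standard error of the fold change. Of 19 core genes 2 rose, among them PRDM14 from 823 and 832 to 1429 and 1311, and 0 fell, with a median of 0.09. Of 10 genes of the naive state 1 rose, KLF4 from 90.8 and 89.5 to 188 and 231 (log2 1.20 ± 0.19, adjusted p = 0.00287). Of 15 genes of the primed state 2 rose, OTX2 and FST, and 1 fell, STC1 at -0.91. Among 11 neuroectoderm genes the endocrine and neuronal factors NEUROG3 and INSM1 rose by 1.77 and 1.62, SOX21 by 0.77, NES fell by 0.33, and PAX6 read 13.7 and 9.42 without and 10.9 and 11.5 with 2DG (log2 -0.02 ± 0.58, adjusted p = 0.987). With any 1 NODAL medium library left out KLF4, OTX2 and NEUROG3 still passed, FST, INSM1, SOX21 and NES did not, PRDM14 did not without replicate 1 of NODAL plus 2DG, and STC1 did not without replicate 1 of either NODAL medium group.

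Among the other genes of largest change were neuropeptides, death and growth regulators and matrix enzymes. TAC1, the precursor of substance P, was nearly silent without 2DG at 5.28 and 5.65 and read 101 and 120.4 with it (log2 4.10 ± 0.50, adjusted p = 5.61e-04). NTS, the neurotensin precursor, moved the opposite way, from 2974 and 2755 to 612 and 680.5 (log2 -2.15 ± 0.26, adjusted p = 5.27e-04). HRK, a BH3-only death activator, rose from 106 and 104 to 419.5 and 407, and DEPTOR, an inhibitor of mTOR, from 37.0 and 49.0 to 167 and 138. The homeobox gene MKX, CUZD1, the calcium-binding NECAB1 and the pseudogene ECEL1P1 rose by 2.22, 2.07, 1.79 and 2.00. Among the genes that fell, HEY1, a Notch-responsive repressor, read 316 and 305 without and 45.4 and 38.7 with 2DG (log2 -2.86 ± 0.37, adjusted p = 8.39e-04). HES1 fell by 0.86, whereas the other 11 Notch genes did not pass. MMP9, a matrix protease, fell from 210.2 and 204 to 43.6 and 30.4, GUCY1B3, a subunit of soluble guanylate cyclase, from 998 and 1102 to 193 and 213, and PLBD1 from 3412 and 3482 to 804 and 806. ERVH48-1, which carries an envelope-derived reading frame of an endogenous retrovirus, had the smallest adjusted p of the comparison, 4.08e-06, with 2825 and 2622 without and 923 and 872 with 2DG. NELL1, GDA, CCDC177, ANO4, PDGFB and CAVIN3 fell by 1.52 to 2.05 on the log2 scale. HES1 did not pass with any 1 NODAL medium library left out, whereas HEY1 did.

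In the adhesion and matrix list and the caveolar and actin list, the members that passed in the fit of all 16 libraries were all lower. Their medians were -0.19 and 0.06, with 7 of 22 and 9 of 17 members positive. CDH6, a cadherin outside these lists, rose by 1.49. Of 22 adhesion and matrix genes 4 fell and 0 rose: ITGA5 at -0.67, ITGB5 at -0.30, LAMB1 at -0.62 and SPARC at -0.33. Without the Activin A libraries 10 fell and 4 rose, so the single direction does not hold in that fit, and with 1 NODAL medium library left out 0 fell. Of 17 caveolar and actin genes 3 fell (5 higher and 6 lower without the Activin A libraries): CAVIN3, CAV1 at -0.82 and EHD2 at -0.83, while FLNA at 0.06 and TAGLN at 0.38 did not pass. The fibroblast marker COL1A2 fell by 0.51 beside them, and the fibroblast sum given above was lower with 2DG; its part in these results was not tested. With any 1 NODAL medium library left out 1 or 2 of the caveolar genes fell and COL1A2 did not pass.

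Cell cycle calls in the fit of all 16 libraries were mostly lower, where 2.76% of all genes tested were lower and 3.11% higher. Of 30 DNA replication genes 4 fell and 1 rose, with a median of -0.22 and 3 of 30 positive (1 and 11 without the Activin A libraries, and 0 or 1 lower with 1 NODAL medium library left out). MCM6 and MCM4 of the replicative helicase fell by 0.54 and 0.41 and UHRF1 by 0.54, and the loader CDC6 rose by 0.44. Of 26 genes of G2 and mitosis 1 fell, HMMR at -0.73, with a median of -0.14 and 6 of 26 positive. Without the Activin A libraries 0 of the 26 rose and 8 fell. CDKN1A, the p21 brake and a p53 target, fell from 214 and 175 to 113 and 117, as did TP53INP1, GADD45B and BMF by 0.51, 0.86 and 0.98. HRK was the single riser of the 22 p53 targets and death genes in the fit of all 16 libraries. Without the Activin A libraries 5 of the 22 rose and 7 fell. Of 15 NRF2 and glutathione genes 5 rose and 0 fell, with a median of 0.54 (3 higher with 1 NODAL medium library left out): NQO1 from 1058 and 984 to 2243 and 2271, HMOX1 from 100.4 and 95.2 to 282 and 253, NFE2L2 by 0.54, and SLC7A11 and CHAC1, which the ATF4 lists also hold. VEGFA, listed under hypoxia and angiogenesis, rose from 605 and 617 to 1568 and 1476, and BNIP3L fell by 0.68. The 13 other hypoxia genes did not pass. Of 8 histone genes whose polyadenylated reads can mark RNA quality 0 passed with limma, edgeR or DESeq2, with 2 at an unadjusted p under 0.05, and the rank correlation of log2 fold change with transcript length over 16338 genes was -0.11. With any 1 NODAL medium library left out VEGFA did not pass, 1 of the 22 p53 targets and death genes fell, and HRK passed, while HMMR was lost without replicate 1 of NODAL plus 2DG and BNIP3L without replicate 1 of either group.

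The same 2DG step was available in the other 3 media, from libraries that share none with those compared here. All 4 media share the estimate of spread of each gene in 1 fit, so calls in different media are not independent tests. Of the 520 genes higher in NODAL medium, 340 were also called higher in TGFb medium (65.4% of the 520 and 37.2% of the 914 there), 311 in plain E7 (59.8% and 12.8% of 2433) and 128 in Activin A medium (24.6% and 51.8% of 247). Of the 462 lower genes, 212 were called lower in TGFb medium (45.9% and 29% of 730), 242 in E7 (52.4% and 9.76% of 2480) and 11 in Activin A medium (2.38% and 29.7% of 37). Of all 16714 genes tested, TGFb, E7 and Activin A medium called 914, 2433 and 247 higher and 730, 2480 and 37 lower. Because these totals differ widely, the shares of shared genes do not rank the media by likeness. Across the 16714 genes, which are not independent, the log2 fold changes in NODAL medium correlated with those in TGFb, E7 and Activin A medium at r of 0.57, 0.39 and 0.36. TXNIP, ASNS and HSPA5 had the same sign in all 4 media, whereas DERL2, HSPA8 and HERPUD2, at 0.51, 0.39 and -0.39 in NODAL medium, stood at -0.20, -0.44 and 0.25 in E7. TXNIP rose by 5.35, 4.64 and 4.48 in TGFb, E7 and Activin A medium, and ASNS by 2.04, 1.72 and 1.48. The median of the 20 ATF4 response regulators was lowest in NODAL medium at 1.21, against 2.03, 2.07 and 1.88 in TGFb, E7 and Activin A medium. Of these 20 genes 0 passed the interaction test against E7 or Activin A medium, where 1.87% and 0.108% of all genes tested passed. With shares this low, 0 of 20 does not show that the responses were alike. The interactions of TXNIP, NODAL medium less E7, TGFb or Activin A medium, were -1.27, -1.98 and -1.11 and did not pass (adjusted p = 0.0578, 0.166 and 0.299). HSPA5 rose by 0.74 in TGFb medium and 0.47 in E7, and stood at 0.32 in Activin A medium (adjusted p = 4.55e-04, 0.00276 and 0.0939). Its interactions did not pass either, with adjusted p = 0.983, 0.167 and 0.275.

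For the feedback inhibitors the starting levels differed between media. LEFTY1 averaged 1720.0 in NODAL medium, 538 in E7, 454 in TGFb medium and 3911 in Activin A medium without 2DG. With 2DG the averages were 235, 25.7, 21.1 and 2063. The average in NODAL medium with 2DG lay below that in plain E7 without 2DG and above that in E7 with 2DG. The log2 fold changes by 2DG were -2.87 in NODAL medium, -4.35 in E7, -4.37 in TGFb medium and -0.94 in Activin A medium, where adjusted p = 0.0909. The interactions of LEFTY1 were 1.48 against E7 (adjusted p = 0.0534), 1.5 against TGFb (0.501) and -1.93 against Activin A (0.0959), so none passed. For MIXL1 the step of -2.35 in NODAL medium differed from the -0.45 in Activin A medium by -1.90 (adjusted p = 0.0211).

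**Figure D4:**
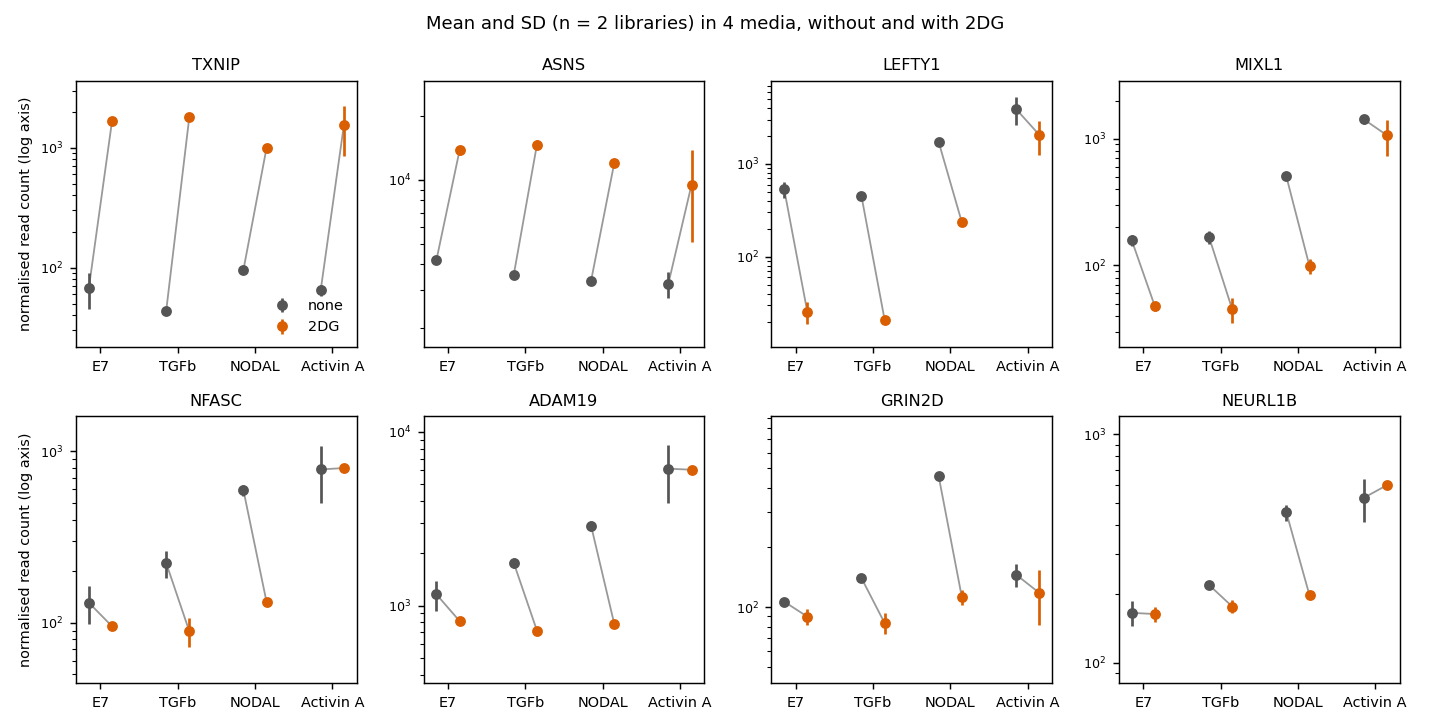
Mean normalised read counts, on a log axis with SD bars (n = 2 libraries), of 8 genes in the 4 media without and with 2DG. LEFTY1 and TXNIP move in the same direction in the 4 media, whereas NFASC, ADAM19, GRIN2D and NEURL1B had log2 fold changes of -2.16 to -1.20 in NODAL medium and smaller ones in E7 and Activin A medium.

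Direct tests of the difference called 18 genes (0.108% of those tested) between NODAL and Activin A medium, 17 with the lower term in NODAL medium and 1 with the higher. They called 313 genes (1.87%) between NODAL medium and E7, 165 with the higher and 148 with the lower term, and 0 with the replicate number as a block. Against TGFb medium limma called 0 genes (0% of those tested), with 1217 at an unadjusted p under 0.05, edgeR 0 and DESeq2 15. These 3 tests share the NODAL medium libraries. Without the Activin A libraries the test against E7 called 4800 genes and that against TGFb 244. The count against E7 was 691 without replicate 1 of E7, 857 or 881 without replicate 1 or 2 of Activin A plus 2DG, 3890 or 3887 without replicate 1 or 2 of Activin A, and 0 without E7 replicate 2 or any of the 10 libraries of E7 plus 2DG, NODAL, NODAL plus 2DG and TGFb with or without 2DG. The count against Activin A was 4296 without replicate 2 of Activin A, 106 without replicate 1 of Activin A plus 2DG, 6 without either TGFb library, and 0 or 1 without any NODAL medium library.

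Several genes called by these tests stood above their plain E7 level in NODAL medium and fell there with 2DG. NFASC, a neuronal adhesion protein, read 563 and 625 in NODAL medium without 2DG and 132 and 132 with it, and averaged 131 in E7 without 2DG and 95.3 with it. Its log2 fold change was -2.16 ± 0.23 in NODAL medium, -0.43 in E7 and 0.08 in Activin A medium, and the interactions were -1.73 against E7 (adjusted p = 0.0383) and -2.24 against Activin A (0.0211). GRIN2D, an NMDA receptor subunit, read 462 and 450.5 without and 119 and 106 with 2DG in NODAL medium against averages of 107 and 89.8 in E7. NODAL medium without 2DG was the highest of the 8 groups for this gene, with 146 in Activin A and 141 in TGFb medium. ADAM19, a membrane protease, read 2749 and 3023 without and 782 and 788 with 2DG in NODAL medium and averaged 6145 and 6059.7 in Activin A medium. NEURL1B, a ubiquitin ligase of Notch ligands, and SCARA3, a scavenger receptor family member, fell in NODAL medium, with log2 fold changes of -1.20 and -1.53. In TGFb medium NFASC, ADAM19 and GRIN2D stood at -1.32, -1.29 and -0.75 on the log2 scale, and the interactions against TGFb did not pass for any of the 5 genes.

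Further genes differed from Activin A medium. IGFBP5, an insulin-like growth factor binding protein, read 65.5 and 65.0 without and 32.7 and 26.2 with 2DG in NODAL medium, while its averages in Activin A medium were 16 without and 126 with 2DG, an interaction of -3.88 (adjusted p = 0.0211). CDH6, a cadherin, rose from 41.2 and 48.1 to 121 and 134 in NODAL medium, while in Activin A medium its log2 fold change was -0.19 (interaction 1.69, adjusted p = 0.0196). EBF2, ERVH48-1 and STC1 had interactions of -1.42, -1.35 and -1.52. Of the genes with the higher term against E7, COX17, a copper chaperone of cytochrome oxidase, stood at -0.01 in NODAL medium and -1.11 in E7, TIMM8B at 0.41 and -0.77, TMEM126A at 0.48 and -0.67, and MT1G, a metallothionein with near-identical copies, at 0.71 and -0.43. DLEU2 stood at 0.44 and -0.95, CD83 at 0.11 and -0.99, and the pseudogenes SNRPGP10 and HMGB1P10, whose reads may belong to their parent genes, at 0.17 and 0.01 against -1.28 and -1.31. The genes with the lower term included ZNF469 at 0.36 and 2.19, SDK2 at -0.29 and 1.37, SLX4 at -0.47 and 1.10, and FAM20A at 0.44 and 1.84. Transcript length moved with this contrast: the rank correlation of log2 fold change with length over 16338 genes was -0.11 in NODAL medium and 0.31 in E7, and -0.38 for the interaction. With the length trend removed 917 genes had the higher and 454 the lower term, and its part in these calls was not tested beyond that.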

How the data were processed

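The authors deposited a normalised signal: each gene's reads over its library's size factor. Polyadenylated RNA was read from both ends, per the labels' protocols. Per the submitters' processing notes, tools included featureCounts 1.5.3, STAR, Trimmomatic 0.36 and DESeq2 1.26.0, with hg38 as build and no roles given. The annotation release and strand setting are not given in the sources used here, so antisense genes, overlapping genes and near-identical copies are uncertain. Every value was a whole multiple of its library's smallest value (tolerance 1e-06, 100% of 283808 values), so whole reads were recovered, 14600479 to 17630329 per library. The table held only genes with at least 1 read in all 16 libraries.

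The filter kept the 16714 genes that reached 10 in 2 or more libraries. In R 4.3.3, limma 3.58.1 was fitted with an intensity trend to log2(value + 1) over 8 groups of 2 libraries, so fold changes are on that scale and understate those of low genes. P-values are two-sided, adjusted by Benjamini-Hochberg per contrast and called under 0.05; errors are standard errors. The script was tested on simulated data. DESeq2 1.42.0 and edgeR 4.0.16 run on those reads, other scalings, filters and pseudocounts, a transcript length correction, a replicate block and leaving out libraries were tried. Genes and 49 lists were chosen with earlier results of these data known. Named genes are list members, the 20 largest called changes in each direction with a group mean of at least 100 and no overlap, 8 genes per direction of each interaction, and fixed pathway genes; some of them are not reported here. Gene positions came from GENCODE 29 (97.6% of symbols matched), and promoter windows from RefSeq, found for 11105 of 16714 genes. Shares of motifs are given only for lists in which at least 80% of genes had a window.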

Additional observations from a re-analysis of the deposited data

Results flagged for a closer look

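The response to 2DG in NODAL medium differed from that in plain E7 by a direct test in 23 of the genes named here. Each value is the log2 fold change in NODAL medium less that in E7 (limma, adjusted p under 0.05 over all genes). None of these calls remained with the replicate number as a block or without E7 replicate 2 or any 1 library of E7 plus 2DG, NODAL, NODAL plus 2DG, TGFb or TGFb plus 2DG, where limma called 0 genes. The membrane and surface genes NFASC, GRIN2D, ADAM19, SCARA3, NEURL1B, SDK2 and ITGA5 differed by -1.73, -1.76, -1.38, -1.26, -1.18, -1.66 and -1.14. ZNF469, SLX4, FAM20A and HERPUD2 differed by -1.83, -1.57, -1.40 and -0.64. In the other direction the mitochondrial genes COX17, TIMM8B and TMEM126A differed by 1.10, 1.18 and 1.15, and the ER genes DNAJB11 and DERL2 by 0.59 and 0.71. HSPA8 differed by 0.82, with opposite signs of 0.39 in NODAL medium and -0.44 in E7. L1TD1, MT1G, CD83 and DLEU2 differed by 0.80, 1.14, 1.09 and 1.39, and the pseudogenes SNRPGP10 and HMGB1P10 by 1.46 and 1.32. Transcript length moved with this contrast, as given in the report, and the smallest adjusted p was 0.0383.

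Against Activin A medium 12 of the named genes differed by the same test, with terms of NODAL medium less Activin A medium. Without any 1 NODAL medium library 0 or 1 gene was called in all. IGFBP5 had the widest, -3.88. NFASC, ADAM19, MIXL1 and GRIN2D differed by -2.24, -1.90, -1.90 and -1.68. STC1, EBF2, NEURL1B, ERVH48-1, SCARA3 and CAV1 differed by -1.52, -1.42, -1.40, -1.35, -1.11 and -1.05. CDH6 was the gene with the higher term, 1.69. The replicates of the Activin A group differed by 53.8 times the counting variance, and the part of that spread in these calls was not tested.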

How the results depend on the processing

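With 2 libraries a group, each count of calls rests on a spread shared across media. The 982 calls of 2DG in NODAL medium became 3388 without the 4 Activin A libraries, 1587 with the transcript length trend removed, 4865 with only the 4 NODAL medium libraries and 315 at a log2 fold change of at least 1 in size. Leaving out 1 library gave 164 to 2467. Depth limits genes near a value of 10. The count against E7, 313, became 847 with a mean of at least 50, 4800 without the Activin A libraries, 1371 with the length trend removed, 1743 with DESeq2 and 0 to 3890 when 1 library was left out. Scaling to the same total split it into 117 higher and 276 lower. The count against TGFb medium, 0, became 244 without the Activin A libraries, 15 with DESeq2 and 0 to 15 when 1 library was left out. The count against Activin A medium, 18, became 34 with the length trend removed, 81 with DESeq2 and 0 to 4296 when 1 library was left out. Apart from fewer libraries or genes in a fit, the cause of these moves was not tested.

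The replicate numbers did not pair the samples throughout: the replicate differences without and with 2DG correlated at r = 0.001 in NODAL medium, 0.006 in TGFb medium, 0.13 in E7 and 0.24 in Activin A medium, and those of any pair of the 8 groups at -0.39 to 0.24. With the replicate block the counts were 807 for 2DG in NODAL medium, 0 against E7, 0 against TGFb and 12 against Activin A. With the block and the length trend removed they were 1400, 1056, 0 and 27, and with the block in the 4 NODAL medium libraries alone 5305. No named gene that passed the test in NODAL medium reversed its direction under the alternatives run. Of these 169 genes, 148 passed with the block, 162 to 169 with other scalings, pseudocounts, filters, edgeR or DESeq2, 63 or 81 without replicate 1 or 2 of NODAL plus 2DG, 75 or 70 without replicate 1 or 2 of NODAL, and 139 to 169 without 1 of the other 12 libraries. A mean of at least 50 gave no value for the blood and endoderm lists.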

Other observations

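Gene groups outside the comparisons above gave these values in NODAL medium. Of 16 autophagy and lysosome genes 3 rose and 0 fell: the autophagy receptor SQSTM1 by 0.64, the protease CTSL by 0.66 and the membrane protein LAMP1 by 0.36 on the log2 scale. Of 9 metallothionein genes and their regulators 1 rose, MT1G, and all 9 had a positive sign. Of 22 ribosome biogenesis genes 1 rose, NOP2 by 0.40, and 21 of 22 had a positive sign, with a median of 0.11. Of 17 FGF and ERK feedback genes 1 fell, the phosphatase DUSP5 from 1196 and 1172 to 699 and 757. Of 11 WNT targets LEF1 rose from 15.8 and 13.2 to 37.2 and 38.7 and LGR5 fell from 25.4 and 34.9 to 10.9 and 6.28, both at low counts. With any 1 NODAL medium library left out none of these calls remained.

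Of the other cell type markers, the trophoblast keratin KRT7 rose from 54.9 and 49.9 to 94.4 and 99.5 and the neural crest factor ETS1 fell from 1853 and 2055 to 1275 and 1229, while KRT18 at -0.03 and FOXD3 at 0.39 did not pass. Of 6 endothelial markers 0 passed with limma, edgeR or DESeq2, and 1 had an unadjusted p under 0.05. VGF, a neuropeptide precursor, rose from 166 and 128 to 269.7 and 247. These 3 calls, of KRT7, ETS1 and VGF, were also lost with any 1 NODAL medium library left out.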
